A study of Mus musculus with 405 samples.

Results

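Cluster 1 of this screen is a group of 7 chemicals: the pyrethroid insecticides Cyfluthrin and Fenpropathrin, the azole fungicides Flusilazole and Imazalil, the ethylenebisdithiocarbamate fungicides Mancozeb and Metiram-zinc, and Niclosamide, a salicylanilide used against tapeworms. Its members were taken by chemical name from the sample titles and comprised 8 libraries, 1 for each chemical except Mancozeb with 2, of the 393 libraries in the table of the screen. They were set against 49 vehicle libraries, and 336 libraries of 290 other chemicals made up the remainder. All chemicals were present at 10 μM except Niclosamide at 1 μM. Primary cortical cells came from embryos, dated E15 in the labels, of C57BL/6J dams crossed to CAST/EiJ males. All groups, vehicle included, had received an inhibitor of cell division and were exposed from day 7 in vitro for 24 h to a chemical or to its DMSO solvent. Cultures of dissociated tissue contain glia as well as neurons, so the libraries are averages over cell types, and fewer cells of a type cannot be told apart from less RNA per cell.

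The authors drew the cluster from these same expression values, so the members were chosen by their similarity in the measurements described here. The differences between cluster 1 and vehicle are therefore given as a description without p-values. Tests are given between the chemical classes within the cluster, between vehicle and chemicals of the same classes outside the cluster, and among vehicle libraries. The first compares libraries that were grouped for being alike and the second those left after the members were taken out, so that only the third is free of the choice. Values are log2 differences from the vehicle median unless another scale is named, so that a difference of 1 is a doubling. Mean differences of the cluster, given with an SD over chemicals, and class differences are from the fits and are taken from the vehicle mean.

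Strongly depolarized neurons admit calcium through voltage-gated channels and NMDA receptors, and calcium-dependent kinases then act on factors already bound to DNA, among them CREB and SRF. Immediate early genes answer first. They encode transcription factors such as Fos, Npas4 and the Egr proteins, and these in turn raise genes for secreted factors such as Bdnf and Vgf that alter synapses. Pyrethroids are known for holding voltage-gated sodium channels open, azoles for blocking the sterol demethylase Cyp51, ethylenebisdithiocarbamates for reacting with thiols and binding metals, and Niclosamide for uncoupling mitochondrial respiration.

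The cAMP response element bound by CREB, TGACGTCA, and its half-site TGACG were sought on both strands of promoters from RefSeq on GRCm38.p6, in windows from 250 bases before to 50 bases after a transcription start. The full element contains the half-site in each orientation. Of 49 genes among the markers, immediate early transcription factors, secreted factors and the largest differences described below, 36 had an entry, with 55 windows in all. The half-site was present in 33 of these windows and the full element in 6, whereas 20.8% and 1.79% of all 32851 windows held them. Windows of the same gene can overlap and hold the same site, as those of Egr2 do. By gene, 25 of the 36 had a half-site and 6 the full element. The full element was present in windows of Maff, Btg2, Scg2, Pcsk1, Cartpt and Sst. Vgf, Crh and Egr3 had no entry. The windows below are those of genes with an entry and the largest higher differences. They are Fos and Npas4 among the transcription factors and Cartpt and Pcsk1 among the secreted factors. Scg2, which also holds the full element, is added, although its difference was smaller than those of several secreted factors not printed. Of these Nppc held no half-site, and neither did most windows of Bdnf. Each window is written from 5′ to 3′ on the strand of the gene, with the half-sites and full elements in capitals.
Fos, chr12:85473640-85473939, plus strand: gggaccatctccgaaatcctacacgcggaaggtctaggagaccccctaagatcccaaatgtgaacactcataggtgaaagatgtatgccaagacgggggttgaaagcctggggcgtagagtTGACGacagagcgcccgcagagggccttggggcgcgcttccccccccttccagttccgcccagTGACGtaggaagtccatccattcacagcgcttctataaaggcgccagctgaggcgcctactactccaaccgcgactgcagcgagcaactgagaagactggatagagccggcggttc
Npas4, chr19:4989922-4990221, minus strand: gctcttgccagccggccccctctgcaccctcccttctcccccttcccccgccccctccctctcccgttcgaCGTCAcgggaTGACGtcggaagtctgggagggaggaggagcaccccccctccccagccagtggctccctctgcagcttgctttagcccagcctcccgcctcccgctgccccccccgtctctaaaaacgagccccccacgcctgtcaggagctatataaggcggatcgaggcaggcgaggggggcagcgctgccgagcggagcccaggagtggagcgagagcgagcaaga
Cartpt, chr13:99900634-99900933, minus strand: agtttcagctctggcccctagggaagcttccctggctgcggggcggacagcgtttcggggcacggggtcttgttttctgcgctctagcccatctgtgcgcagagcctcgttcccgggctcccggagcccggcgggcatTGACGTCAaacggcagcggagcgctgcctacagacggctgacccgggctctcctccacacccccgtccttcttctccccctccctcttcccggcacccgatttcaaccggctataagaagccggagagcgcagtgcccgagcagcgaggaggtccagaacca
Pcsk1, chr13:75089607-75089906, plus strand: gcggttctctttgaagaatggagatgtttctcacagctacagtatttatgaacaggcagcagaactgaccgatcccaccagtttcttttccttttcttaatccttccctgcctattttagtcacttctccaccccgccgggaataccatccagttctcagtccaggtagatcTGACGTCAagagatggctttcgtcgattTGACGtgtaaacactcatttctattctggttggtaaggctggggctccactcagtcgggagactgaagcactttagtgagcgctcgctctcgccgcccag
Scg2, chr1:79439977-79440276, minus strand: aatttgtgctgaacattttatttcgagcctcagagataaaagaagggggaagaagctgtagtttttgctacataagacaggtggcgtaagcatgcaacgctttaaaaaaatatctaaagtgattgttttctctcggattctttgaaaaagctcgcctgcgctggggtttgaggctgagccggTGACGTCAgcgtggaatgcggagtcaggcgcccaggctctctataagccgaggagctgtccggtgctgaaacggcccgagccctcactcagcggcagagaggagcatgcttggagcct

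Vehicle and Mancozeb libraries are numbered here in the order in which the series lists them, because their labels carry no replicate numbers. One control library stood apart. Vehicle replicate 39 lay outside the range of the other 48 vehicle libraries at 2402 of 13304 genes (18.1%), and the next most deviant vehicle library did so at 900 (6.76%). Its Fos, at 2.47, and its Vgf, at 2.74, were as high as in the cluster 1 libraries. The likeness extended to lists of genes described below, as medians of differences from the vehicle mean. Replicate 39 was at 0.73 for immediate early transcription factors, 0.59 for MAP kinase feedback and 1.06 for secreted factors. The highest cluster 1 library reached 0.74, 0.63 and 1.16. For potassium channels replicate 39 was at 0.11, where the cluster 1 libraries ran from -0.23 to 0.03. It was kept as a control in the fits. Ranges of vehicle are given with and without it for some genes, and for others only over the other 48 libraries. Leaving it out matters for such ranges. All 8 cluster 1 libraries lay above the 48 at 13 genes and below them at 12. With replicate 39 included, 1 and 2 genes remained. The labels assign no batches, and the table holds values from which the authors had removed batch effects, so no value within a batch could be given.

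All 5 marker genes of the cluster were higher in each of the 8 libraries than the vehicle median. Fos, which encodes a subunit of the transcription factor AP-1 (mm9, chromosome 12, 86814840 to 86818223), differed by 1.63 with Cyfluthrin, 2.55 with Fenpropathrin, 1.86 with Flusilazole, 1.37 with Imazalil, 1.31 and 2.14 with Mancozeb, 2.12 with Metiram-zinc and 2.64 with Niclosamide. Vehicle libraries ranged from -1.77 to 2.47, and to 0.82 without replicate 39, so that all 8 libraries lay above the other 48. The mean difference was 1.99 ± 0.47 (SD, n = 7 chemicals), a 3.98-fold higher value. All 7 chemicals were among the 20 with the highest Fos of the 297 in the screen.

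Npas4 encodes an activity-dependent transcription factor that responds closely to calcium entry (chromosome 19, 4984355 to 4989971). It differed by 1.58 with Cyfluthrin, 2.54 with Fenpropathrin, 1.11 with Flusilazole, 0.76 with Imazalil, 0.96 and 1.36 with Mancozeb, 0.76 with Metiram-zinc and 1.42 with Niclosamide. The highest of the 48 vehicle libraries was at 0.90, and Imazalil and Metiram-zinc lay within their range. Vehicle replicate 39 was at 2.32, which only Fenpropathrin exceeded. The mean difference was 1.36 ± 0.61 (SD, n = 7).

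Bdnf, a neurotrophin that strengthens synapses (chromosome 2, 109514857 to 109567204), differed by 1.63, 2.33, 1.41, 0.81, 0.61, 1.49, 1.79 and 1.38 in the same order of libraries. All but the first Mancozeb library were above the 48 vehicle libraries, whose highest value was also 0.61 to 2 decimals. Vehicle replicate 39, at 2.46, was above all 8 cluster 1 libraries. Vgf, the precursor of secreted neuropeptides (chromosome 5, 137506165 to 137509221), differed by 2.12, 2.39, 1.69, 0.71, 0.76, 1.65, 1.91 and 1.98. Here all 8 libraries were above the 48, which reached 0.51, and Imazalil and the first Mancozeb library stood well below the rest. Replicate 39, at 2.74, was again above all 8.

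Crh, the corticotropin-releasing hormone (chromosome 3, 19593401 to 19595396), differed by 1.34, 2.93, 1.32, 1.79, 0.62, 0.83, 1.39 and 1.78. Vehicle varied most for this gene, from -2.24 to 1.41 without replicate 39, and only 3 of the 8 libraries lay above that range. The same 3 lay above replicate 39, which was at 1.73. In 4 vehicle libraries of a separate table of counts Crh was at 1.38 ± 0.561 CPM (SD, n = 4), with 4 to 9 counts in a library. In that table Fos was at 17.4 ± 5.85 CPM, Npas4 at 12.3 ± 6.64, Bdnf at 25.6 ± 10.5 and Vgf at 104 ± 23.7. The markers thus differed widely in how many reads stood behind them.

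**Figure D1:**
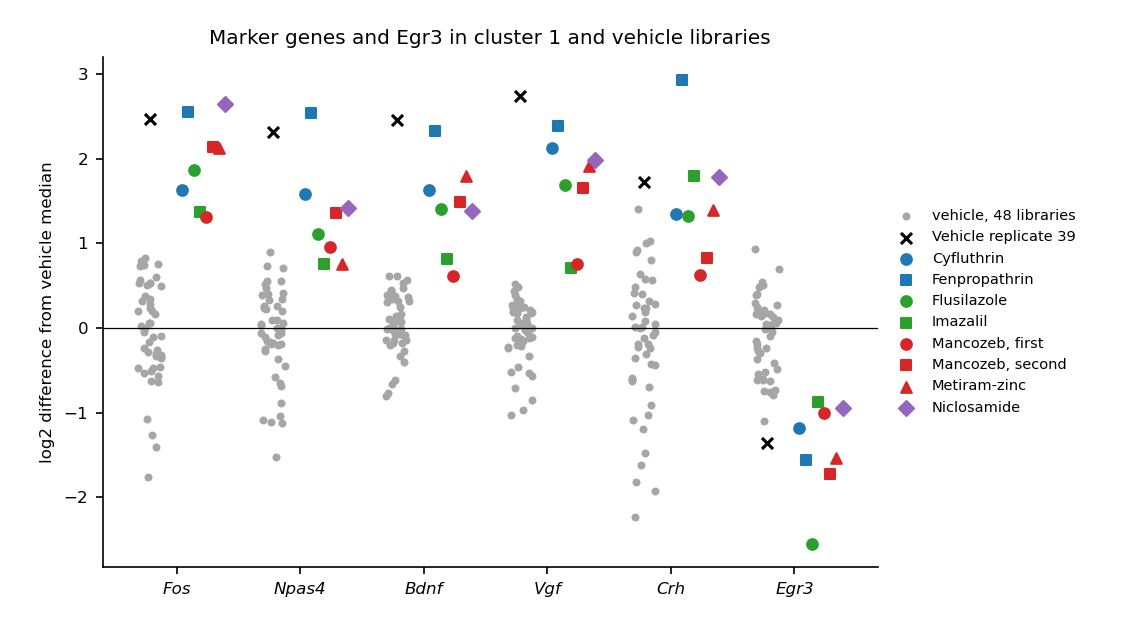
Log2 difference from the vehicle median (vertical axis) for the 5 marker genes and Egr3, with grey points for 48 vehicle libraries, a cross for Vehicle replicate 39 and coloured symbols for the 8 cluster 1 libraries. Fos and Vgf of all 8 libraries lie above the 48 vehicle libraries, and Egr3 lies below the vehicle median in all 8.

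Fenpropathrin had the highest value of the 297 chemicals for Npas4, Bdnf, Vgf and Crh, and Niclosamide for Fos. High markers were not restricted to the cluster. Of the 290 other chemicals, 7 had more Fos than the lowest member, 19 more Npas4, 15 more Bdnf, 27 more Vgf and 41 more Crh. The highest Fos outside the cluster was 2.37 with Methylene bis(thiocyanate) at 1 μM, followed by Dicofol at 2.23. Dicofol also had Bdnf at 2.07, and Lindane had Vgf at 2.24.

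In the fit across all 13304 genes with limma, 896 genes were called higher in cluster 1 than in vehicle (6.73% of those tested) and 1151 lower (8.65%), at an adjusted p under 0.05. Since these values chose the members, the counts that follow describe the lists and are no evidence about them. Over all genes the median difference was -0.01. Of the 26 immediate early transcription factors, 13 were called higher, 3 lower and 10 were not called, with a median difference of 0.35.

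Nr4a1, Nr4a2 and Nr4a3, orphan nuclear receptors, were higher by 0.94 ± 0.46, 0.76 ± 0.33 and 1.07 ± 0.36 (SD, n = 7), each in all 8 libraries. Crem, whose ICER products repress CREB targets, was higher by 1.02 ± 0.47, Per1, a clock gene, by 0.96 ± 0.35, and Fosl2 by 0.69 ± 0.32. Atf3, a stress and activity-responsive factor, was higher by 1.32 ± 0.56, from 0.29 with Metiram-zinc to 2.28 in the first Mancozeb library.

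The Egr family of zinc finger factors went the other way or did not move together. Egr3 (chromosome 14, 70477252 to 70479964) differed by -1.18 with Cyfluthrin, -1.56 with Fenpropathrin, -2.55 with Flusilazole, -0.87 with Imazalil, -1.0 and -1.72 with Mancozeb, -1.54 with Metiram-zinc and -0.94 with Niclosamide. Vehicle ranged from -1.10 to 0.94 without replicate 39, which itself was at -1.36. Egr4 was lower by 0.71 on average, at -0.71 ± 0.33 (SD, n = 7), and Klf10 at -0.79 ± 0.23. Egr1 was at -0.20 ± 0.55 and Egr2 at -0.02 ± 0.43, with libraries on either side of the vehicle median and no call. Arc, an immediate early gene of the synapse, was at -0.04 ± 0.54, and Jun at -0.02 ± 0.15. High Fos and Npas4 in these libraries were thus accompanied by low Egr3 with Arc within the range of vehicle and Egr1 within or below it.

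**Figure D2:**
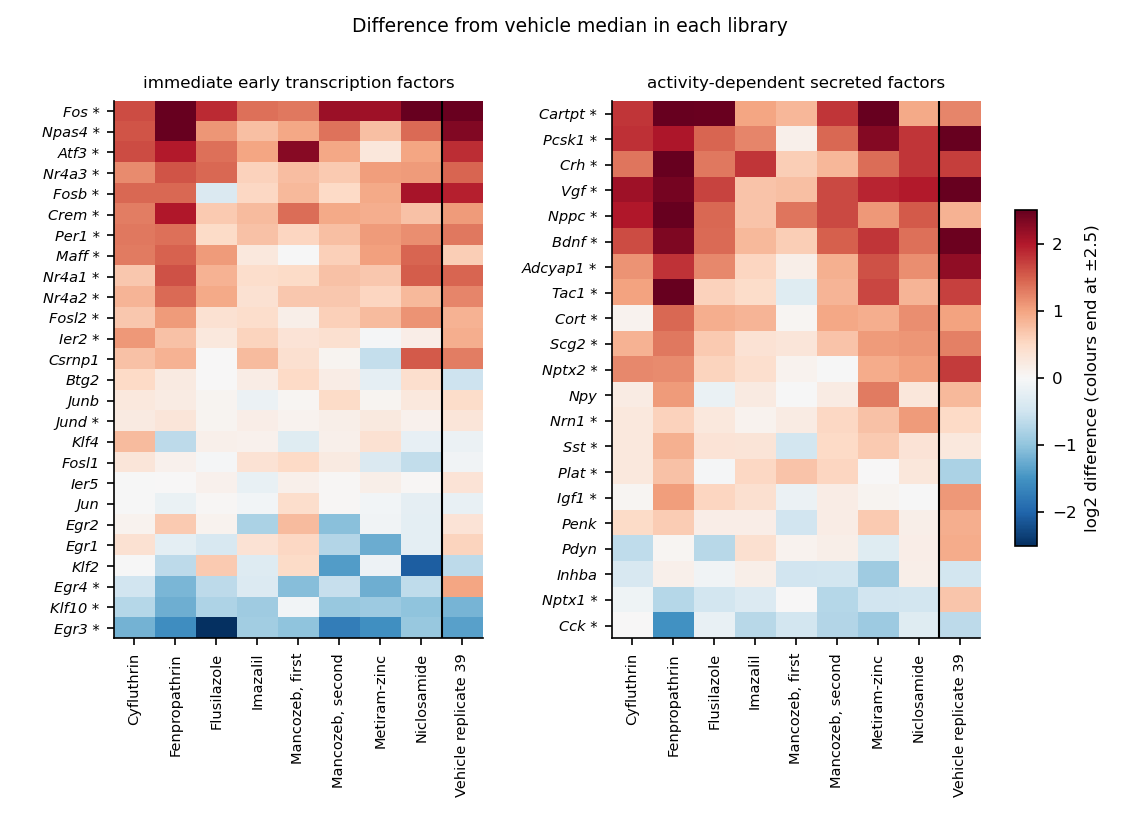
Log2 difference from the vehicle median, shown as colour, for 26 immediate early transcription factors and 21 activity-dependent secreted factors (rows, ordered by the mean difference) in the 8 cluster 1 libraries and Vehicle replicate 39 (columns), with an asterisk for genes called in the fit across all genes. Fos and Npas4 head the factors and Egr3 closes them in all 8 libraries on the same side of vehicle, whereas Egr1, Egr2 and Klf2 change sign between libraries.

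Inhibitors of growth factor and MAP kinase signalling were higher in part. Of 12 such genes, 8 were called higher and none lower, with a median of 0.32. The 48 vehicle libraries reached 0.31 in the median of this list. Flusilazole, Imazalil and both Mancozeb libraries lay within their range. Spry4, a Sprouty inhibitor of receptor tyrosine kinases, was higher by 1.19 ± 0.32 (SD, n = 7) and lay above the 48 vehicle libraries in all 8. Spred3 was higher by 1.17 ± 0.38, and the MAP kinase phosphatases Dusp4, Dusp5 and Dusp6 by 0.80 ± 0.37, 0.78 ± 0.39 and 0.44 ± 0.28. Among 15 immediate early effectors 6 were called higher and none lower, among them Rgs2, which limits G protein signalling, at 1.08 ± 0.39, and Dusp1 at 0.89 ± 0.32.

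Activity-dependent secreted factors were the next list. Of 21 measured, 15 were called higher, 2 lower and 4 were not called, with a median of 0.73. Cartpt, which encodes the CART neuropeptide, had the largest mean difference of all genes that lay on one side of vehicle in all 8 libraries, at 2.17 ± 1.42 (SD, n = 7). It differed by 1.79 with Cyfluthrin, 4.98 with Fenpropathrin, 2.48 with Flusilazole, 0.99 with Imazalil, 0.83 and 1.79 with Mancozeb, 2.75 with Metiram-zinc and 0.95 with Niclosamide. Vehicle reached 2.13, so that 3 of the 8 libraries lay outside its range and Fenpropathrin carried much of the mean.

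Genes that process and store peptides followed. Pcsk1, a prohormone convertase that cleaves peptide precursors, was higher by 1.73 ± 0.51 and Scg2, a granin of dense-core vesicles, by 0.85 ± 0.35. Nppc, the C-type natriuretic peptide, was higher by 1.57 ± 0.62, the PACAP precursor Adcyap1 by 1.13 ± 0.49, and the substance P precursor Tac1 by 1.12 ± 0.96. Nptx1, a pentraxin that gathers AMPA receptors, and Cck, cholecystokinin, were the 2 called lower, at -0.42 ± 0.18 and -0.54 ± 0.51. Other genes among the 8 largest higher differences were Pacsin3, an endocytic adaptor, at 1.63 ± 0.57, and Acan, the aggrecan core protein of perineuronal nets, at 1.63 ± 0.79. The largest lower differences, beside Egr3, were those of F730043M19Rik at -1.41 ± 1.34, the potassium channel gene Kcnq3 at -1.26 ± 0.75, the metalloprotease Adamts17 at -1.25 ± 0.33, the adaptor Sla at -1.23 ± 0.60, Tmem54 at -1.17 ± 1.03, the matrix protein Smoc2 at -1.15 ± 0.68 and Dio3, which inactivates thyroid hormone, at -1.14 ± 0.40.

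Potassium channel genes were lower in part. Of 66 measured, 19 were called lower and 7 higher, and the median over the list was -0.10. Kcnh3, an ether-à-go-go-like channel of the forebrain, differed by -1.18 with Cyfluthrin, -2.03 with Fenpropathrin, -0.83 with Flusilazole, -0.93 with Imazalil, -0.64 and -1.10 with Mancozeb, -1.03 with Metiram-zinc and -0.97 with Niclosamide. Vehicle reached down to -0.51 without replicate 39. All 8 libraries lay below that value, but not all of them lay below replicate 39. Kcnq3, a subunit of the M current that restrains repeated firing, ranged from -2.35 with Fenpropathrin to -0.41 with Imazalil, and Kcng1, a silent subunit, from -1.43 in the second Mancozeb library to -0.71 with Niclosamide. Kcnj3, a G protein-gated inward rectifier, was higher by 0.65 ± 0.41.

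Of 21 calcium channel genes, 10 were called lower, 1 higher and 10 were not called, with a median of -0.23. In the median of this list the 48 vehicle libraries reached down to -0.19. Flusilazole, Imazalil, Niclosamide and the first Mancozeb library lay within their range. The T-type subunit Cacna1i was at -0.41 ± 0.19 and the L-type subunit Cacna1c at -0.37 ± 0.29. Sodium channel genes had 3 of 10 called lower and none higher, with Scn3a at -0.34 ± 0.21. Atp2b4, a calcium pump of the plasma membrane, was at -0.83 ± 0.21 and lay below the 48 vehicle libraries in all 8. Hcn4, a pacemaker channel gene, was at -0.58 ± 0.26, with 5 of the 8 libraries below all 49 vehicle libraries.

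Receptors for the inhibitory transmitter GABA were higher in part. Of 12 GABA-A receptor subunit genes, 6 were called higher and 1 lower, with a median of 0.21. Gabra5, of extrasynaptic receptors, was at 0.38 ± 0.18 with 5 of the 8 libraries above all 49 vehicle libraries, and Gabrb1 was at 0.55 ± 0.25. The AMPA receptor gene Gria1 and the kainate receptor gene Grik3 were at -0.40 ± 0.19 and -0.46 ± 0.24, as the 2 of 9 called lower, and none of these 9 was called higher. Among 6 NMDA receptor genes 1 was called higher and 1 lower, among 7 metabotropic glutamate receptor genes 2 and 2, among 11 cholinergic receptor genes 3 and 2, and among 15 genes of ion pumps and exchangers 2 and 2.

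The ATF4 programme, by which cells answer stress and shortage of amino acids, had a list median above 0 in each library. Of 24 genes, 17 were called higher and none lower, and 13 lay above the vehicle median in all 8 libraries. The median over the list was 0.50, from 0.26 in the second Mancozeb library to 0.83 with Metiram-zinc, while the 48 vehicle libraries ranged from -0.29 to 0.29 and replicate 39 was at 0.40, so that the second Mancozeb library lay within them. Slc3a2, the heavy chain of several amino acid transporters (chromosome 19, 8781372 to 8797859), differed by 0.55, 0.43, 0.50, 0.38, 0.42, 0.43, 0.54 and 0.75 in the order of libraries used above. It was the 1 gene (0.00752% of those tested) that lay above all 49 vehicle libraries in all 8, and vehicle reached 0.30. Chac1, which degrades glutathione, was higher by 1.10 ± 0.40 (SD, n = 7), Psph, of serine synthesis, by 1.02 ± 0.30, Mthfd2, of mitochondrial folate metabolism, by 1.00 ± 0.31, Sesn2 by 0.98 ± 0.40 and Atf5 by 0.57 ± 0.15.

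Against the other 48 vehicle libraries, 13 genes (0.0977%) were above and 12 (0.0902%) below in all 8 cluster 1 libraries. The following were named after their values were seen. Those above were Fos, Vgf, Spry4, Slc3a2, Atf4, its target Ppp1r15a, the arginine transporter gene Slc7a3, the factors Etv5, Nfil3 and Cited2, the peptide-amidating enzyme Pam, the myelin glycoprotein gene Omg and Hsd17b12, which elongates fatty acids. Atf4 itself was at 0.66 ± 0.19 and Slc7a3 at 1.33 ± 0.23. Those below included Kcnh3, Kcnv1, Atp2b4, Wnt7b at -0.91 ± 0.33, the receptor tyrosine kinase gene Met at -0.84 ± 0.24, the CaMKII inhibitor gene Camk2n1 at -0.65 ± 0.12, Rfx3, Dtx4, Vash1 and Tubb3. Against all 49 libraries 2 genes (0.015%) remained below, Pnmal2 at -0.35 ± 0.08 and Ppm1e, a phosphatase of CaM kinases, at -0.34 ± 0.11.

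Genes of cholesterol synthesis and uptake had 7 of 23 called higher and none lower, but the members disagreed: the median over the list was 0.57 with Flusilazole, 0.42 with Imazalil and with Fenpropathrin, and -0.51 and -0.03 in the Mancozeb libraries. Idi1, an enzyme of isoprenoid synthesis, was at 0.89 with Flusilazole and 0.44 with Imazalil, against -0.74 and 0.29 with Mancozeb. The 48 vehicle libraries themselves ranged from -0.34 to 0.56 in the median of this list, so that only the first Mancozeb library and Flusilazole lay outside it.

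NRF2 target genes, which detoxify electrophiles, had list medians of 0.41 and 0.18 with Mancozeb and 0.42 with Metiram-zinc, where vehicle without replicate 39 reached 0.27 and the other members 0.20, with 3 of 16 called higher in the cluster and none lower. Hmox1, heme oxygenase, was at 2.24 and 0.66 with Mancozeb and 1.30 with Metiram-zinc, and between 0.30 and 0.80 with the others. Genes of glycolysis and the hypoxia response, of which 6 of 27 were called higher and none lower, had a median of 0.73 with Niclosamide, above the 0.55 that vehicle reached, and of -0.33 with Imazalil. Slc2a1, the glucose transporter, was at 1.71 with Niclosamide and from -0.35 to 0.62 in the other 7 libraries. Single libraries stand behind these values for every chemical but Mancozeb.

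The remaining lists are given by their calls, beside 6.73% of all genes called higher and 8.65% lower. Of 88 nuclear genes of the respiratory chain 2 were called higher and none lower, of 71 cytoplasmic ribosomal protein genes none and 5, of 15 heat shock and chaperone genes 4 and none, and of 5 targets of the aryl hydrocarbon receptor 1 and none. None of the 4 metallothionein and zinc exporter genes was called over the 7 chemicals, and of 20 zinc and manganese transporter genes 2 were called lower.

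**Figure D3:**
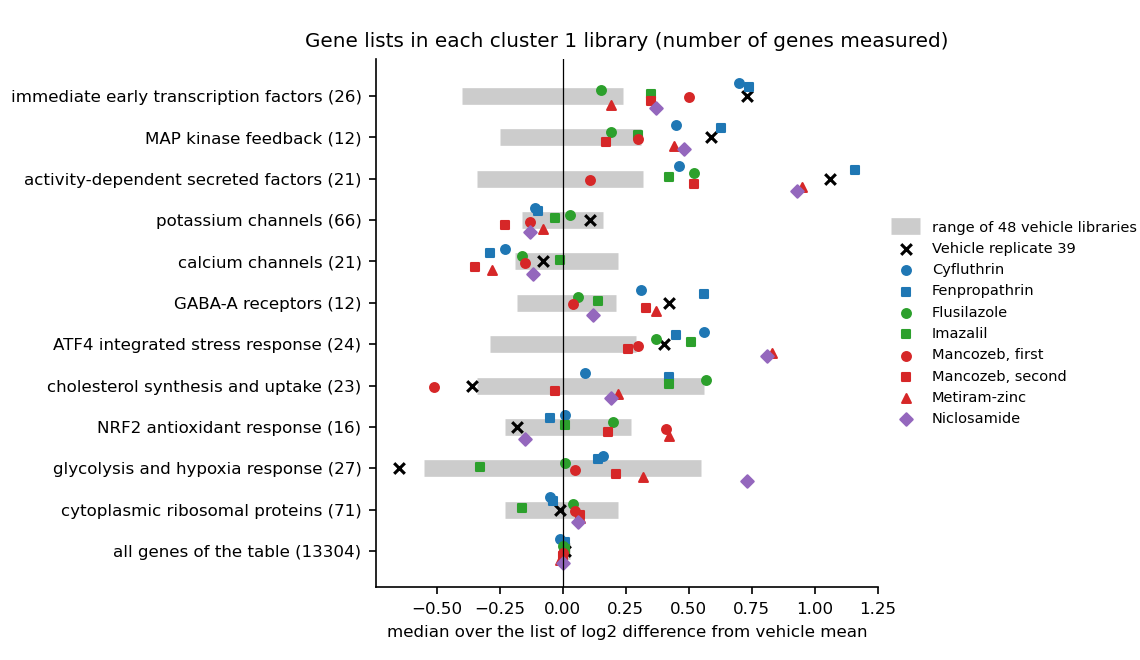
Median over each gene list of the log2 difference from the vehicle mean (horizontal axis) in each of the 8 cluster 1 libraries, with grey bars for the range of 48 vehicle libraries and a cross for Vehicle replicate 39. The ATF4 list reaches from 0.26 to 0.83 in the members, the cholesterol list from -0.51 to 0.57, and all genes together stay near 0.

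The cultures had the RNA of cortical neurons. In the 4 vehicle libraries with counts, 15 neuron markers summed to between 10200 and 10500 CPM, 9 astrocyte markers to between 683 and 1210 and 12 microglia markers to between 34.7 and 48.7. Mag, of myelin, and Cldn5, of endothelium, were at 0 counts in all 4. In cluster 1, 4 of 15 neuron markers were called lower and none higher, with a median of -0.05 over the list. Tubb3, a neuronal tubulin, was at -0.37 ± 0.15 and Rbfox3, the neuronal nuclear antigen NeuN, at -0.59 ± 0.29, while Map2 and Snap25 were at 0.00 ± 0.11 and 0.04 ± 0.11. Of 17 interneuron genes 3 were called lower and 1 higher. No gene of 8 for astrocytes, 11 for mural cells and fibroblasts, 7 for dividing cells and 1 for endothelium was called, and 1 of 7 for the oligodendrocyte lineage was called lower. Of 6 microglia genes, Cd68, a lysosomal protein, was called higher at 1.43 ± 0.67, while Cx3cr1 was at -0.41 ± 0.42 and Csf1r at 0.06 ± 0.99. The part of these cell type markers in the differences above was not tested.

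The chemical classes within the cluster were compared with each other. Chemicals entered the cluster because their profiles were alike, so the choice of members limited these differences and their number is no evidence of likeness. With limma, 1 gene (0.00752%) differed between the 2 pyrethroids and the other 5 chemicals, none (0.0%) between the 2 azoles and the others, and 1 (0.00752%) between the 2 dithiocarbamates and the others. The pyrethroid contrast had 17 calls without Cyfluthrin and the azole contrast 4 without Imazalil, where the class is a single library assumed to vary like the rest. The dithiocarbamate contrast had 2 without Imazalil, 0 without Metiram-zinc and, without Mancozeb, 1 gene that was lower in place of Srxn1. At an unadjusted p under 0.05 there were 664, 834 and 510 genes. When no gene differs, that threshold passes a share of about 0.05 of the 13304 tested. The pyrethroid and dithiocarbamate counts did not exceed this share, and the azole count did. Because the members were chosen for being alike, a count on either side of this share is no evidence about a class. With 2 chemicals on one side, a difference that did not pass the threshold was not shown to be absent.

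Srxn1, sulfiredoxin, an NRF2 target that repairs oxidized peroxiredoxins (chromosome 2, 151931252 to 151937112), was at 1.41 and 0.85 with Mancozeb and 1.09 with Metiram-zinc. It was at 0.22 with Cyfluthrin, 0.57 with Fenpropathrin, 0.20 with Flusilazole, 0.16 with Imazalil and -0.23 with Niclosamide. All 3 dithiocarbamate libraries were above the others and above vehicle, which reached 0.28. The difference was 0.93 (standard error 0.14, limma, adjusted p = 0.000226), but 0.90 (adjusted p = 0.0626) without Mancozeb and 0.95 (adjusted p = 0.0604) without Metiram-zinc. Ino80b, a subunit of the INO80 chromatin remodeller, was at -2.49 with Cyfluthrin and -3.75 with Fenpropathrin. In the other libraries it lay between -1.29 with Imazalil and 0.63 with Niclosamide, and vehicle ranged from -1.78 to 1.51. The difference was -3.09 (standard error 0.55, limma, adjusted p = 0.00777), and -2.46 (adjusted p = 0.763) without Fenpropathrin. Ino80b was at 5.98 ± 1.59 CPM (SD, n = 4) in the vehicle libraries with counts.

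Relatives of the members were screened at the same 10 μM and were not drawn into the cluster, so their lower values are given as a description. Of the 8 other pyrethroids Fos ranged from -0.67 with Esfenvalerate to 0.90 with Tetramethrin, below both Cyfluthrin and Fenpropathrin. Of the 11 other azoles it ranged from -0.52 with Tetraconazole to 1.75 with Hexaconazole, which lay between Imazalil and Flusilazole. Maneb, the manganese ethylenebisdithiocarbamate without added zinc, had Fos at 0.05, Bdnf at 0.19, Vgf at -0.14 and Srxn1 at -0.09, against 1.73, 1.05, 1.21 and 1.13 for the median of the Mancozeb libraries, which contain both metals. Ethylenethiourea, a breakdown product of these fungicides, had Fos at 0.05. Each of these is a single library except Mancozeb, Ethylenethiourea and Prochloraz, an azole, with 2 each.

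Set against vehicle, the chemicals of these classes outside cluster 1 gave a test on treated libraries other than the members. These chemicals are what was left once those with the cluster profile had been taken out on the same values. The fits covered the 5 markers too, and none was called, with a median of 0.28 for pyrethroids and 0.19 for azoles. Taking out the members on these values favoured that outcome, so it is no evidence about the markers. All contrasts share the 49 vehicle libraries. For the 8 pyrethroids, limma called 46 genes higher (0.346%) and 63 lower (0.474%). Egr1 fell by 0.58 with limma (adjusted p = 0.0135), lower with 7 of 8 chemicals, and Kcnh3 fell by 0.50 (adjusted p = 0.0272), lower with 8 of 8. Slc3a2 rose by 0.29 with limma (adjusted p = 0.0184) and Chac1 by 0.63 (adjusted p = 0.0364), each higher with 8 of 8. Of 24 ATF4 genes 4 rose, with a median of 0.25, and of 23 cholesterol genes 6 rose, with a median of 0.28. In neither list did a gene fall. The genes named here and for the azoles below were chosen after their values were seen. Neither class was set against the other chemicals of the screen, so a shift common to treated libraries was not tested.

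For the 11 azoles, limma called 88 genes higher (0.661%) and 94 lower (0.707%). Egr3 fell by 0.59 (adjusted p = 0.0297) and was below the vehicle median with 11 of 11 chemicals. The median Egr3 of all 290 chemicals outside the cluster was also below vehicle, at -0.27. Of 66 potassium channel genes none rose. Kcnq3 fell by 0.65 with limma (adjusted p = 0.0151), lower with 10 of 11 chemicals, Kcnn2 fell by 0.70, Kcng1 fell by 0.56 and Kcnh3 fell by 0.45. Cholesterol genes were the most marked group, with 16 of 23 rising, none falling and a median of 0.35. Idi1 rose by 0.53 with limma (adjusted p = 0.000346) and Cyp51, the target of azoles, by 0.33 (adjusted p = 0.00365), each higher with 10 of 11. The rise of Cyp51 was not particular to azoles. With the 8 pyrethroids outside the cluster it was 0.25 (limma, adjusted p = 0.0272), higher with 8 of 8.

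With the members included, 221 genes (1.66%) were called higher and 423 (3.18%) lower over 10 pyrethroids, 160 (1.2%) and 189 (1.42%) over 13 azoles, and 3 (0.0225%) and 9 (0.0676%) over the 3 ethylenebisdithiocarbamates. For the last class the 12 calls became 128 without Vehicle replicate 39. These calls rest in part on libraries chosen for their profile. Srxn1 was among the 3, at 0.72.

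**Figure D4:**
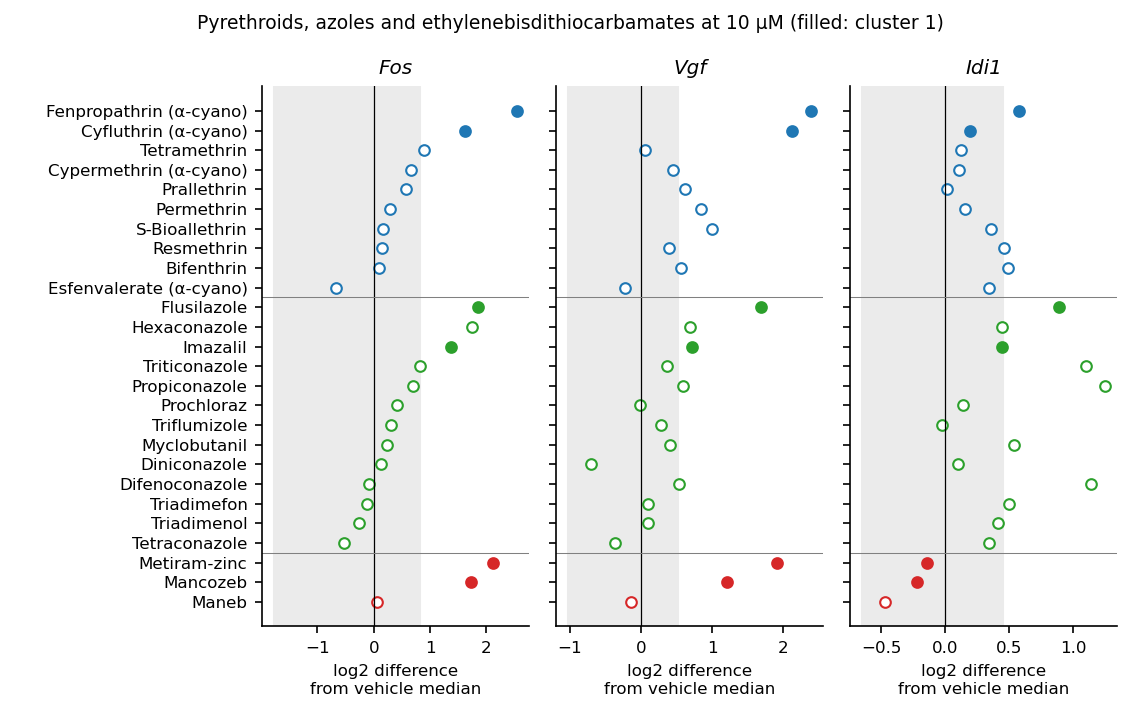
Log2 difference from the vehicle median (horizontal axes) of Fos, Vgf and Idi1 for each pyrethroid, azole and ethylenebisdithiocarbamate at 10 μM (rows, by class and falling Fos), with filled points for cluster 1 and a grey band for the range of 48 vehicle libraries. Hexaconazole reaches 1.75 in Fos outside the cluster, Maneb stays near 0 in Fos and Vgf, and most azoles lie to the right of 0 in Idi1.

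Cyfluthrin and Fenpropathrin both carry an α-cyano group, as do Cypermethrin and Esfenvalerate. Cyfluthrin and Fenpropathrin were chosen for their profile, so the 4 are set beside the 6 pyrethroids without the group at the same dose as a description, with no test. Fos was at 1.05 ± 1.38 (SD, n = 4) with and 0.36 ± 0.32 (SD, n = 6) without the group. Npas4 was at 0.93 ± 1.44 and 0.47 ± 0.45, Bdnf at 1.09 ± 1.21 and 0.35 ± 0.29, Vgf at 1.18 ± 1.27 and 0.58 ± 0.33, and Crh at 0.79 ± 1.78 and -0.24 ± 0.72. The spread among the 4 exceeded the difference of the means for each gene. Cypermethrin and Esfenvalerate, with Fos at 0.67 and -0.67, lay below the 2 members.

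The markers also varied together without any chemical. Across the 49 vehicle libraries, Fos correlated with Bdnf at a Pearson r of 0.852 and a Spearman rho of 0.77, with Vgf at 0.775 and 0.566, and with Npas4 at 0.696 and 0.507. The permutation p of r was 1e-05 for each, the smallest that 100000 resamples can give, and 1.33e-05 after adjustment over the 4 relations. The permutation p of rho was 1e-05 for Bdnf, 7e-05 for Vgf and 0.00031 for Npas4. Without the 2 libraries farthest from the median of Fos, replicates 25 and 39, r was 0.785, 0.61 and 0.565. Crh correlated with Fos at 0.299 (permutation p = 0.0378) and a rho of 0.2 (permutation p = 0.166), and without those 2 libraries r was 0.0939 (permutation p = 0.528), so that this relation rested on them.

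**Figure D5:**
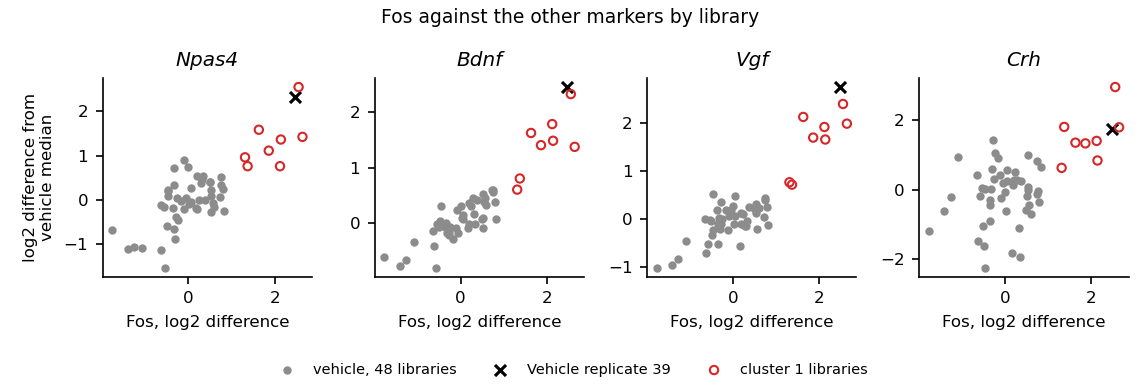
Fos (horizontal axes) against Npas4, Bdnf, Vgf and Crh (vertical axes), all as log2 differences from the vehicle median, with grey points for 48 vehicle libraries, a cross for Vehicle replicate 39 and open red circles for the 8 cluster 1 libraries. Bdnf follows Fos closely among vehicle libraries, at an r of 0.801 without replicate 39, and Crh at 0.164.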

How the data were processed

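Polyadenylated RNA was sequenced from cultured mouse cortical cells. TagDust served the authors to screen reads and TopHat to place them on mm9, and counting used RefSeq gene models joined by symbol. For the screen, the authors computed RPKM, kept genes with RPKM above 0 in more than 90% of samples and a length above 500 bp, and deposited log10 values normalized by quantiles, centred on the gene median and freed of batch effects with a mixed model. These values are deviations and not levels, and their depth is unknown. The counts deposited for another experiment served only for levels: 4 vehicle libraries with totals from 2778615 to 7833440 counts were converted to CPM of the total. The table's 10 other columns, of samples not compared here, were not used.

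Log10 values were converted to log2. Each chemical entered as the median of its libraries. Fits used limma 3.58.1 in R 4.3.3 with a variance trend and Benjamini-Hochberg adjustment over 13304 genes at 0.05, and were tested on simulated data. Permutation tests with 100000 resamples, two-sided, were run with scipy 1.17.1 and numpy 2.4.6 under Python 3.11.15. The study describes several culture and sequencing batches, but the labels tie no library to one, so p-values measure the spread between libraries, which may be technical. Values without another label are for single libraries and carry no replicate error. Membership of the cluster, the lists and the tests were chosen with earlier results of these data known. Named genes were the 5 markers, genes of the immediate early and secreted lists, the 8 largest differences in each direction among called genes with all 8 libraries on one side, the 5 largest in each direction called in a class contrast, and genes of other lists that lay beyond all vehicle libraries in 2 or more members. Kcnj3, Spred3, Dusp5, Map2, Snap25, Cx3cr1, Csf1r and the genes of the closing part were named after their values were seen, as were genes that lay apart from 48 vehicle libraries and genes named for chemicals outside the cluster. Gene coordinates came from the GENCODE M1 annotation of mm9. Alternatives were single libraries, a threshold of 0.01, variably expressed genes (SD above 0.1 on the log10 scale), centred libraries, other chemicals as controls, no variance trend and the removal of each chemical. The removal of Vehicle replicate 39 was added after the data were seen. A planned exact test of pyrethroids with and without a cyano group was run, and its p-values are not given because 2 of the chemicals were chosen on the same values. Results for some genes are not reported here.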

Additional observations from a re-analysis of the deposited data

Results flagged for a closer look

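Among 58 genes whose 8 cluster 1 libraries were examined with Dixon's criterion at its 95% level, 8 had a library that stood apart from the rest. The criterion is meant for replicates, whereas these libraries are of 7 different chemicals. Some of the genes were also named for their differences in these libraries. The flags are therefore a description, and no chance rate is given for them. The Fenpropathrin library was the one apart for Npas4 at 2.54, with the nearest library at 1.58, for Cartpt at 4.98 (nearest 2.75), for F730043M19Rik at -4.35 (nearest -1.41) and for Sla at -2.55 (nearest -1.41). The first Mancozeb library was the one apart for Jun at 0.44 (nearest 0.03), Klf10 at -0.06 (nearest -0.72), Penk at -0.48 (nearest 0.14) and Sst at -0.45 (nearest 0.27).

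In 2 genes a chemical class differed from the other members in the limma fit across all genes. Ino80b was lower with the pyrethroids by a difference of -3.09 (adjusted p = 0.00777), and Srxn1 was higher with the dithiocarbamates by 0.93 (adjusted p = 0.000226). Each rests on 2 chemicals on one side, within a group chosen for being alike, and on a spread taken mostly from vehicle libraries.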

How the results depend on the processing

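Of 2047 genes called in cluster 1 against vehicle, 1229 were called at a threshold of 0.01, and between 1504 (without Fenpropathrin) and 2012 when single chemicals were left out. Among the 5121 variably expressed genes alone 414 were called, with 57.2% of calls higher against 43.8% over all genes. The pyrethroid contrast within the cluster had 1 call, 3 with 8 single libraries and from 1 to 17 without single chemicals, with 17 without Cyfluthrin. The azole contrast had from 0 to 4 (4 without Imazalil) and the dithiocarbamate contrast from 0 (without Metiram-zinc) to 2 (without Imazalil). Ino80b lost its call without Fenpropathrin, and Srxn1 without Mancozeb or Metiram-zinc. For whole classes against vehicle, variably expressed genes alone gave 97, 55 and 6 calls for pyrethroids, azoles and dithiocarbamates, against 644, 349 and 12 over all genes. Without the members of cluster 1, pyrethroids had 109 calls and azoles 182. Without Vehicle replicate 39 the dithiocarbamates had 128. The difference in Npas4 between pyrethroids with and without the cyano group, 0.46, ran from -0.08 (without Fenpropathrin) to 1.02 over the removal of single chemicals. The correlation of Crh with Fos was 0.0939 without the 2 farthest libraries and 0.164 without replicate 39. The stricter threshold keeps fewer calls by construction, and the cause of the other changes was not tested. Elsewhere, 78 recomputed counts and main values stayed within 1.5 times or on their side of the threshold, among them the dithiocarbamate contrast without Mancozeb, whose 1 call was lower in place of higher. Of single genes, 237 recomputed values kept their direction and their side of the threshold. No paired analysis was possible because the labels of the libraries compared carry no replicate numbers. Depth of the screen libraries is unknown and limits what can be said of low genes such as Crh.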

Other observations

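Genes that were high or low in cluster 1 were also set against Fos across the 49 vehicle libraries, in 8 relations chosen after their values were seen. Spry4 had a Pearson r of 0.721 (permutation p = 1e-05, the smallest that the resamples can give, adjusted over the 8 relations 8e-05) and a Spearman rho of 0.522 (permutation p = 0.00019). Slc3a2 had an r of 0.52 (adjusted permutation p = 0.000267), Klf10 -0.532 (0.000267), Kcnh3 -0.504 (0.00028) and Egr3 -0.46 (0.00139), with a rho of 0.506, -0.324, -0.454 and -0.38 (permutation p of 0.00023, 0.0236, 0.00146 and 0.00774). Without the 2 libraries farthest from the median of Fos, r was 0.512 for Spry4, 0.369 for Slc3a2, -0.369 for Klf10, -0.43 for Kcnh3 and -0.321 for Egr3, with adjusted permutation p of 0.00192, 0.0218, 0.0218, 0.0106 and 0.045. Kcnq3 at -0.3, Egr4 at 0.221 and Cartpt at 0.24 had adjusted permutation p of 0.0501, 0.128 and 0.112. These relations share the same libraries and the same Fos values.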
